A study of Mus musculus with 3 samples.

Results

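Memory CD4 T cells were followed here in 3 droplet-based single-cell libraries of mouse peripheral blood mononuclear cells (PBMCs). A cell was a member if it carried at least 2 UMIs (molecular barcodes, each standing for 1 captured transcript) of *Cd3d*, *Cd3e* and *Cd3g* together, at least 1 of *Cd4* and at least 2 of *Rora*, *Maf*, *Tnfsf8* and *Cxcr3* together, with none of *Cd8a*, *Cd8b1*, *Csf1r* and *Foxp3* and at most 1 of *Cd79a* and *Cd79b*. Members were thus chosen by measured UMIs. Of 28333 cells kept after filtering, 757 met this rule: 91 of 8354 cells in the young library, 282 of 9136 in the aged library and 384 of 10843 in the aged-GA library. The young library came from mice of 8 weeks, the aged library from mice of 16 months, and the aged-GA library from mice of 16 months given glycyrrhizic acid (GA), a saponin of licorice root, for 1 month. By the methods, the mice were female C57BL/6, GA was injected into the tail vein every other day and controls received PBS. Blood came from several mice per group, the sources used here do not say if it was mixed before loading, and each group was 1 sample. With 1 library per group, the group cannot be told apart from the library, no test was possible, and the intervals below, of 95%, cover counting error only.

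Naive CD4 T cells leave the thymus, circulate through lymph nodes under the control of the homing receptor *Ccr7*, and keep the transcription factors *Lef1*, *Tcf7* and *Satb1*. After meeting antigen, some of their descendants persist as memory cells, which carry more adhesion and cytoskeletal proteins, such as *Cd44*, *Itgb1* and the S100 proteins, and can move into tissues. In old mice, thymic output is low and memory cells take a larger place among CD4 T cells in blood and spleen.

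The 4 genes of the rule have different roles. *Rora* (chromosome 9) encodes a nuclear receptor of T-helper and innate lymphoid cells, and *Maf* (chromosome 8) a transcription factor of follicular helper, Th17 and interleukin-10-producing cells. *Tnfsf8* (chromosome 4) encodes CD30 ligand, and *Cxcr3* (chromosome X) the receptor for interferon-induced chemokines that marks Th1 cells. Since these genes chose the cells, their levels are a description. *Rora* was at 260, 339 and 348 CPM (the gene's UMIs scaled to the total UMIs of the same cells) in young, aged and aged-GA members. *Maf* was at 225, 392 and 358 CPM, *Tnfsf8* at 128, 237 and 263 CPM, and *Cxcr3* at 97.0, 164 and 191 CPM. A UMI of *Cxcr3* was found in 26.4%, 40.1% and 52.9% of young, aged and aged-GA members. When each cell was thinned to 2000 UMIs, leaving out 11 aged and 3 aged-GA members below that depth, these shares were 10.99%, 24.4% and 32.0%, against 0.0951%, 0.189% and 0.759% of B cells, which should lack it. The thinned shares for *Maf* were 26.4%, 52.0% and 46.2%, against 3.71%, 3.75% and 3.73% of B cells.

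Young members differed from the others in how they met the rule. The sum of the 4 genes had a median of 3, 4 and 5 UMIs in young, aged and aged-GA members, and reached at most 23, 23 and 22. Exactly 2 UMIs, the lowest sum allowed, were carried by 40 of 91 young members (44.0%), 52 of 282 aged members (18.4%) and 61 of 384 aged-GA members (15.9%). A single one of the 4 genes was detected in 52.7%, 19.5% and 15.4% of members. All 4 were detected in none of the young, 17 of the aged and 45 of the aged-GA members. These counts depend on depth, and the median UMI total of a member was 5426, 3975 and 4750 in the 3 libraries, so young members were the deepest. No barcode was shared between the members of different libraries.

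Among all kept cells, members made up 1.09% in the young library (95% exact binomial interval 0.878 to 1.34%), 3.09% in the aged library (2.74 to 3.46%) and 3.54% in the aged-GA library (3.20 to 3.91%). The aged share was 2.83 times the young share, a log2 ratio of 1.503 (1.16 to 1.84). Aged-GA over aged, the log2 ratio was 0.20 (-0.02 to 0.42), an interval that includes 0. *Foxp3*-negative CD4 T cells as a whole went the other way between young and aged, at 11.97%, 5.57% and 6.51% of kept cells in the 3 libraries. Within them, members were 9.10% in young (91 of 1000), 55.4% in aged (282 of 509) and 54.4% in aged-GA mice (384 of 706). The log2 ratio of this share was 2.61 (2.30 to 2.91) for aged over young and -0.03 (-0.18 to 0.12) for aged-GA over aged. CD4 T cells with no UMI of the 4 genes, called other CD4 T cells below, were 9.05%, 1.77% and 2.19% of kept cells. The filter on mitochondrial UMIs moved the young share: members had a median of 4.75%, 3.05% and 4.15% mitochondrial UMIs in the 3 libraries, and with at most 5% allowed instead of 7.5% the young share of kept cells was 1.51% and the log2 ratio of aged over young 1.00. The ratio also depended on the threshold and on depth, at 0.38 with at least 1 UMI of the 4 genes, 2.04 with at least 3 and 2.66 when the rule was applied to cells thinned to 2000 UMIs.

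**Figure D1:**
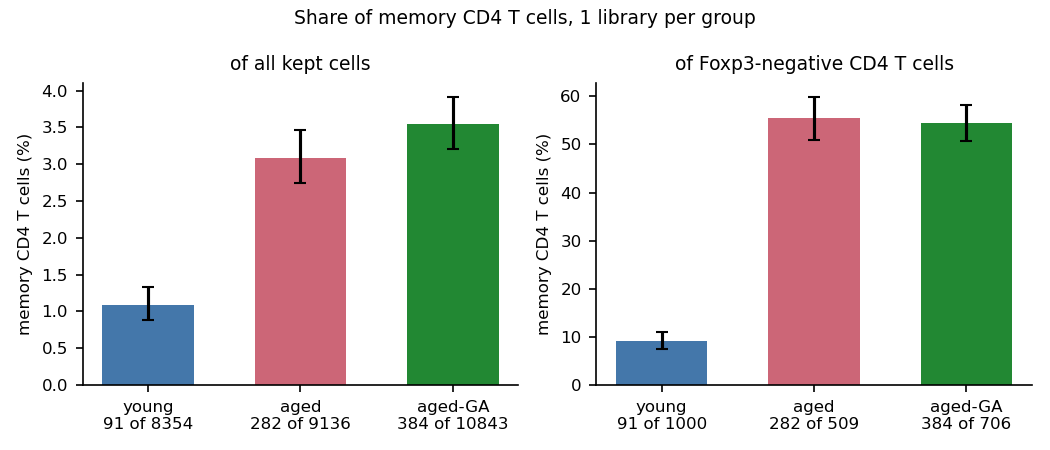
Share of memory CD4 T cells in each library, in percent of all kept cells (left) and of *Foxp3*-negative CD4 T cells (right). Bars give the share and lines its exact binomial 95% interval; aged and aged-GA bars, at 3.09% and 3.54% on the left and 55.4% and 54.4% on the right, stand above the young bars of 1.09% and 9.10%.

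The label was checked by comparing members with other CD4 T cells of the same library. This is a description, as the rule made the classes. Of 4570 genes with at least 50 UMIs over both classes in every library, 87 (1.9%) were at least 2-fold higher in members in all 3 libraries and 5 (0.109%) at least 2-fold lower, on the scale of log2(CPM + 5). The 4 genes of the rule are among the 87 and are higher by construction. *S100a4*, a calcium-binding protein of motile cells, was at 634, 961 and 1043 CPM in young, aged and aged-GA members and at 9.09, 52.1 and 45.4 CPM in other CD4 T cells, a log2 ratio of 5.50, 4.08 and 4.38. *S100a6* was at 858, 2141 and 1484 CPM in members and at 18.2, 200.1 and 94.9 CPM in other CD4 T cells. *Itgb1*, the integrin beta 1 chain, was at 367, 705 and 829 CPM against 22.9, 77.5 and 59.2 CPM. *Ahnak*, a large membrane scaffold protein, was at 338, 514 and 550 CPM against 13.5, 56.4 and 43.8 CPM. *Lgals1*, *Anxa2*, *S100a11*, *Bhlhe40*, *Hopx*, *Prr13* and *Lgals3* completed the genes with the largest smallest ratio, from 2.29 for *Lgals3* to 3.19 for *Lgals1*.

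In the list of memory or effector genes, 16 of 19 measured were at least 2-fold higher in members than in other CD4 T cells in all 3 libraries. None was 2-fold lower. *Cd44*, the hyaluronan receptor used to mark memory T cells, was at 100.5, 195 and 206 CPM against 13.5, 45.1 and 36.5 CPM. In thinned cells, *S100a4* was detected in 23.1%, 37.6% and 50.9% of young, aged and aged-GA members (26.4%, 45.4% and 58.1% before thinning). The thinned share in B cells was 0.571%, 4.16% and 2.28%, so the share in members lay above this background in each library. Against *Foxp3*-positive CD4 T cells, 1 of 19 measured genes of the memory or effector list was 2-fold higher in members in all 3 libraries. The median log2 ratio was -0.44, -0.27 and 0.25 in young, aged and aged-GA mice, so the list separated members little from that class.

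Naive genes separated the classes less. The 18 genes of the naive or central list had a median log2 ratio, members over other CD4 T cells, of -0.32, -1.09 and -1.21 in young, aged and aged-GA mice, and 2 of them, *Igfbp4* and *Pdlim4*, were at least 2-fold lower in all 3. *Igfbp4*, a secreted binding protein of insulin-like growth factors that marks naive T cells, was at 272, 121 and 62.7 CPM in members and at 557, 1012 and 755 CPM in other CD4 T cells. *Ly6c1* was lower by a log2 ratio of -2.08, -2.24 and -2.12, and *Itm2a* by -1.27, -1.34 and -1.75. *Ifngr2*, a chain of the interferon-gamma receptor, was at 76.2, 24.1 and 12.05 CPM in members and at 172, 95.8 and 96.6 CPM in other CD4 T cells. *Tcf7* was near the same level in both classes, at 591, 687 and 604 CPM in members and 563, 747 and 652 CPM in the others. *Lef1* was at 516, 195 and 192 CPM in members and at 791, 637 and 652 CPM in the others. The young members thus kept more of the naive genes than the aged or aged-GA members.

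**Figure D2:**
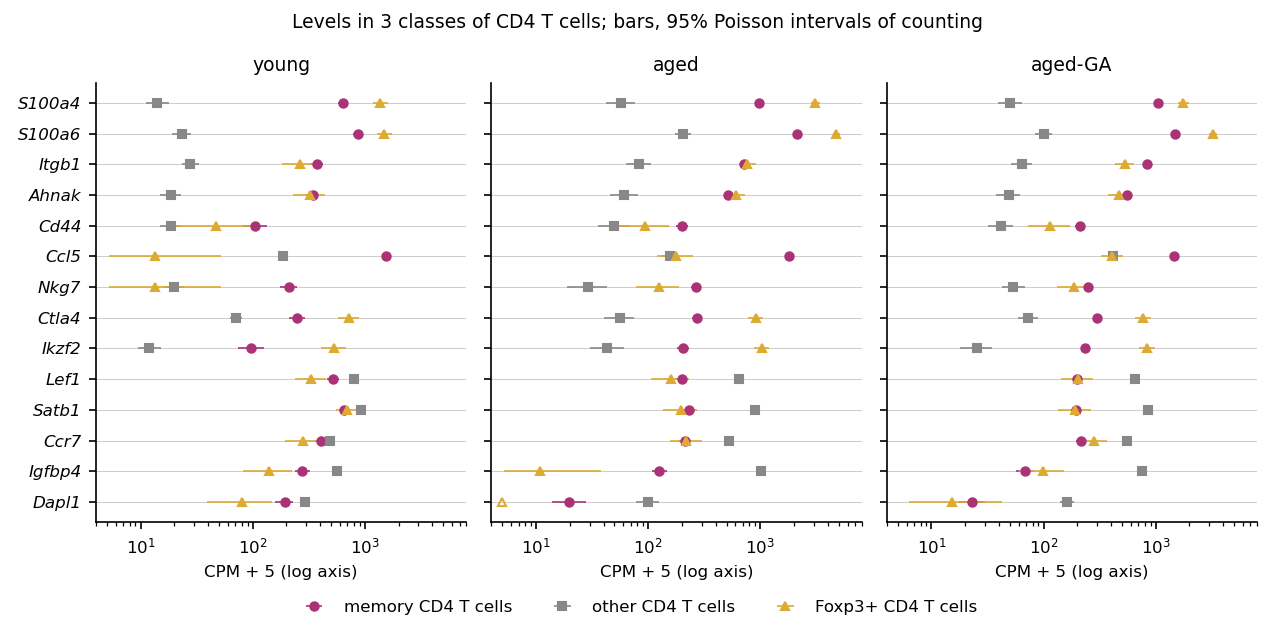
Levels of memory genes (*S100a4* to *Nkg7*), of *Ctla4* and *Ikzf2*, and of naive genes (*Lef1* to *Dapl1*) in memory CD4 T cells, other CD4 T cells and *Foxp3*-positive CD4 T cells, as CPM plus 5 on a log axis, 1 panel per library. Lines are Poisson 95% intervals of counting and an open symbol marks a gene without a UMI; *S100a4* sits at 634, 961 and 1043 CPM in memory cells and below 60 CPM in other CD4 T cells of every library.

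*S100a4* and *S100a6* lie close together on chromosome 3 and were both far higher in members than in other CD4 T cells, so their promoters are shown. In *Foxp3*-positive CD4 T cells they were higher still, *S100a6* at 1491, 4742 and 3258 CPM. The sequences are from RefSeq on GRCm38.p6, 250 bases before to 50 bases after the annotated start, at chr3:90603520-90603819 and chr3:90612644-90612943, both on the plus strand. Both strands were searched for TATAAA, the TATA box, for AGGTCA, the core to which RORA-type receptors bind, and for TGANTCA, the AP-1 motif, and matches are in capitals. The *S100a4* promoter holds TATAAA starting 31 bases before the start and AGGTCA starting 24 bases before it. The *S100a6* promoter holds none of the 3, which says only that these letters are not in this window. Of 32851 mouse promoters of this length, 13.6% hold TATAAA, 16.3% AGGTCA and 7.81% TGANTCA on either strand.
S100a4: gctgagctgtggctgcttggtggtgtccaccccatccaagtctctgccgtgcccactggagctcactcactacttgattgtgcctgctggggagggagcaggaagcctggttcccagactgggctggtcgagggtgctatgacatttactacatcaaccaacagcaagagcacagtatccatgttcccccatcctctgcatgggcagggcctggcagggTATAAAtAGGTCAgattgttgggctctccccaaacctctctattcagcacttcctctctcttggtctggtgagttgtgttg
S100a6: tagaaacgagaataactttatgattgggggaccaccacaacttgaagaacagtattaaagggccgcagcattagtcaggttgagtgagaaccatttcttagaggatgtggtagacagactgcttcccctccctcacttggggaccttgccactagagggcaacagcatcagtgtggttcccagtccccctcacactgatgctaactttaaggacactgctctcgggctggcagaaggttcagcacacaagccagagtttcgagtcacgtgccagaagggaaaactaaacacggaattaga

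The values of the cells around the threshold show how sharply the rule separates them. *S100a4* was at 59.5, 152 and 140 CPM in CD4 T cells with 1 UMI of the 4 genes, just outside the rule, and at 184, 471 and 354 CPM in members with 2 UMIs, just inside it. With 3 or more UMIs it was at 928, 1071 and 1151 CPM. *Igfbp4* was at 590, 527 and 411 CPM just outside and at 562, 403 and 284 CPM just inside, against 83.0, 57.2 and 27.9 CPM with 3 or more. *Lef1* was at 785 CPM in the 40 young members with 2 UMIs, a level within the interval of the 756 young other CD4 T cells at 791 CPM (762 to 820 CPM). In aged and aged-GA members with 2 UMIs it was at 238 and 277 CPM, against 637 and 652 CPM in other CD4 T cells. *Satb1*, a chromatin organizer, was at 908 CPM in young members with 2 UMIs and 470 CPM in those with 3 or more. In the young library, then, the 40 members at the threshold had naive levels of *Lef1*, *Satb1* and *Igfbp4*, and the 51 members above it did not.

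**Figure D3:**
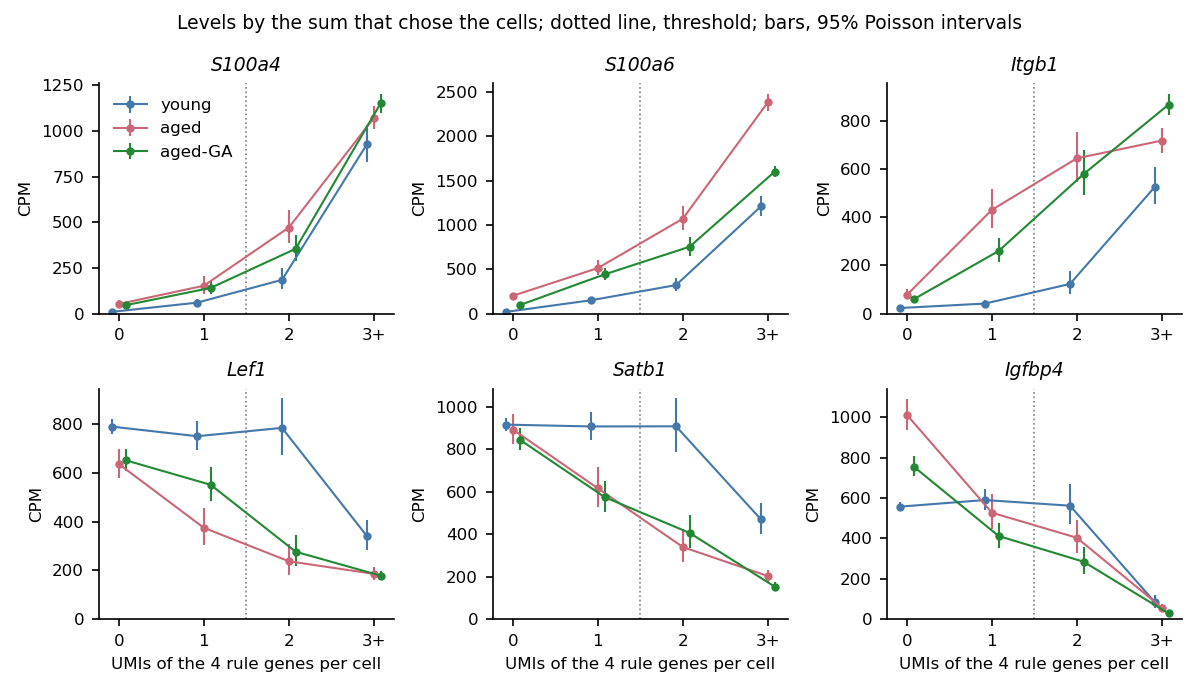
Level in CPM of 6 genes against the number of UMIs of the 4 rule genes in a cell (0, 1, 2, or 3 and more), with 1 line per library; the dotted line marks the threshold of the rule and vertical lines are Poisson 95% intervals. Young cells with 2 UMIs have *Lef1* at 785 CPM, close to 791 CPM with 0 UMIs, whereas aged and aged-GA cells with 2 UMIs have 238 and 277 CPM.

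UMIs of markers of other cell types were found in many members, and high counts of them in a few. Of the 12 myeloid markers, 7 were detected in young and 11 in aged and aged-GA members, with *Csf1r* at 0 by the rule and *Lyz2*, *Il1b*, *Ccl6* and *Spi1* also at 0 in young; summed, they were at 326, 2442 and 2521 CPM, led by *Ctss* in young and by *S100a9* in the others. Without *Cst3* and *Ctss*, 8 aged and 11 aged-GA members with at least 10 UMIs of the 10 remaining myeloid genes carried 82.1% and 89.5% of these UMIs, and a single cell up to 568 and 1173 of them. At least 1 such UMI was found in 8 young, 226 aged and 257 aged-GA members, and at least 1 UMI of the B cell set without *Ighm* in 35, 199 and 319 members. The 9 gamma-delta T cell markers summed to 187, 24.1 and 13.6 CPM, led by *Trdc* in young and aged-GA members (74.5 and 4.02 CPM) and by *Tcrg-C2* in aged members, where *Trdc* was at 1.56 CPM. *Tcrg-V6* and *Sox13* were at 0 in aged and aged-GA members and *Tcrg-C1* in aged-GA members. In the young library, 4 of 91 members carried 94.3% of the UMIs of this set without *Blk*. B cell markers, all 12 of them detected, summed to 210, 535 and 893 CPM, led by *Ighm* in young, *Igkc* in aged and *Cd74* in aged-GA members. NK cell markers summed to 452, 503 and 371 CPM, led by *Txk*, which T cells express, and NKT cell markers to 277, 292 and 321 CPM, led by *Il2rb*, with *Zbtb16* at 1.73, 1.56 and 0 CPM. CD8 T cell markers summed to 36.4, 38.9 and 37.1 CPM, led by *Klrk1*, with *Cd8a* and *Cd8b1* at 0 by the rule. Platelet markers summed to 0, 14.8 and 119 CPM, with all 6 at 0 in young members and *Pf4* leading in the others. Erythroid markers summed to 969, 7761 and 6681 CPM, led by *Hbb-bs* at 537, 4896 and 4004 CPM in members and at 577, 4634 and 3890 CPM in other CD4 T cells. In all, 6 young, 13 aged and 19 aged-GA members (6.59%, 4.61% and 4.95%) carried at least 10 UMIs of the myeloid, B or NK set, or at least 3 of the gamma-delta or platelet set. Some values are also given without these members below. Genes of these sets, such as *Gzma*, *S100a8*, *S100a9*, *Lyz2*, *Il1b*, *Tyrobp*, *Cd74*, *H2-Aa*, *H2-Ab1* and *Pf4*, helped choose the members left out. A fall of such a gene without them is partly by construction. Calls between libraries then keep the same minimum of 50 UMIs, and the division of members by rule genes does not apply it.

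Aged over young, 291 of the 4489 genes that reached 50 UMIs in the 2 libraries together (6.48%) were at least 2-fold higher in aged members and 37 (0.824%) at least 2-fold lower. The median log2 ratio of all genes was 0.21, and after centring on it 142 were higher and 85 lower, so the balance of the counts depended on the scaling. In other CD4 T cells, 203 of 5978 genes (3.4%) were 2-fold higher and 54 (0.903%) lower. The genes with the highest ratios are best known from myeloid cells: *S100a9* was at 3.47 and 806 CPM in young and aged members and *S100a8* at 3.47 and 698 CPM. Without the members that carried markers of other cells, *S100a9* was at 4.13 and 98.3 CPM and *S100a8* at 4.13 and 70.6 CPM. *Cxcl2*, *Ccl4*, *Il1b*, *Lyz2*, *Retnlg* and *Ifitm1* had no UMI in young members, and *Ccl3* had 1. Of the 248 *Ccl4* UMIs in aged members, 200 came from 1 cell, and of the 271 *Cxcl2* UMIs, 12 were left without the members named above. Likewise *Il1b* went from 169 to 14.3 CPM, *Retnlg* from 107 to 17.6 CPM and *Ifitm1* from 70.8 to 31.1 CPM in aged members, all under the minimum of 50 UMIs without those members. *Lyz2*, at 120 CPM, was spread over 91 aged members and was at 89.9 CPM without the members named above. It was at 90.2 CPM in aged other CD4 T cells.

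*Gm26532*, also among the genes with the highest ratios, was like *Lyz2* spread over many members. This long noncoding transcript had no UMI in young members and 83 UMIs in 60 of the 282 aged members, 64.6 CPM, at least 12.4-fold higher against a floor of 3 UMIs in the young members. No cell held more than 4 of the UMIs in aged members, and without the members carrying other markers it was at 63.8 CPM. In aged-GA members it was at 81.8 CPM in 98 cells. Other CD4 T cells had 0.551, 14.1 and 15.4 CPM and B cells 11.4, 21.2 and 18.1 CPM, below the members in the aged and aged-GA libraries but not in the young library.

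Among genes of memory and effector cells, 3 of 22 measured were at least 2-fold higher in aged members and 1 lower. Over all genes, 6.48% were higher and 0.824% lower. The median log2 ratio of the list was 0.48, beside 0.21 for all genes. In other CD4 T cells, 9 of 17 measured were at least 2-fold higher and none 2-fold lower, beside 3.4% of all genes higher. The median there was 1.05, beside 0.20 for all genes. *S100a6* was at 858 and 2141 CPM in young and aged members, a log2 ratio of 1.31 (1.18 to 1.46 by counting). *S100a11* was at 586 and 1191 CPM (1.02) and *Ly6a*, the Sca-1 antigen, at 246 and 502 CPM (1.01). *Itgb1* and *Cd44* had ratios of 0.93 and 0.92. *Cxcr6*, a homing receptor of tissue-resident T cells, was lower, at 84.9 and 25.7 CPM, but 49 UMIs in 8 young members made up the first value, and without the members carrying markers of other cells it was 41.3 and 22.7 CPM.

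These ratios depended on which members were counted. With 3 or more UMIs of the rule genes, the median of the memory or effector list was 0.052, *Itgb1* had a ratio of 0.44, *Cd44* of 0.47 and *S100a4* of 0.21 in place of 0.60, and *S100a6* of 0.98 in place of 1.31, short of 2-fold. Without the members carrying markers of other cells the median was 0.90 over 21 genes, and 8 of them were at least 2-fold higher in place of 3 of 22, with *S100a6* at 1.82. *S100a4* (1.10), *Cd44* (1.27), *Lgals1* (1.11), *Anxa2* (1.14) and *Itgal* (1.08) were the 5 added, and *Cxcr6* was under the minimum of UMIs. Over all genes, 267 of 4154 were then at least 2-fold higher and 44 lower, with a median of 0.23. Of the 366 *S100a4* UMIs in young members, 205 were left without those 6 members, and 1 young cell held 84.

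Of 16 naive genes measured, 12 were lower in aged than in young members, 4 of them at least 2-fold, and none was 2-fold higher. The median log2 ratio was -0.49, and over all genes 0.824% were 2-fold lower with a median of 0.21. In other CD4 T cells 1 of 18 was 2-fold higher and 1 lower, with a median of 0.12. *Dapl1* was at 187 and 14.8 CPM in young and aged members, a ratio of -3.28 from 108 and 19 UMIs. *Satb1* was at 643 and 228 CPM (-1.48), *Lef1* at 516 and 195 CPM (-1.38) and *Igfbp4* at 272 and 121 CPM (-1.14). *Ccr7*, the lymph node homing receptor, was at 402 and 207 CPM (-0.94), while *Tcf7* was at 591 and 687 CPM and *S1pr1*, the receptor used to leave lymph nodes, at 319 and 377 CPM. With 3 or more UMIs of the rule genes, the ratios were -1.19 for *Satb1*, -0.86 for *Lef1*, -0.50 for *Igfbp4* and -0.38 for *Ccr7*. *Satb1* remained past 2-fold, and *Lef1* and *Igfbp4* did not.

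**Figure D4:**
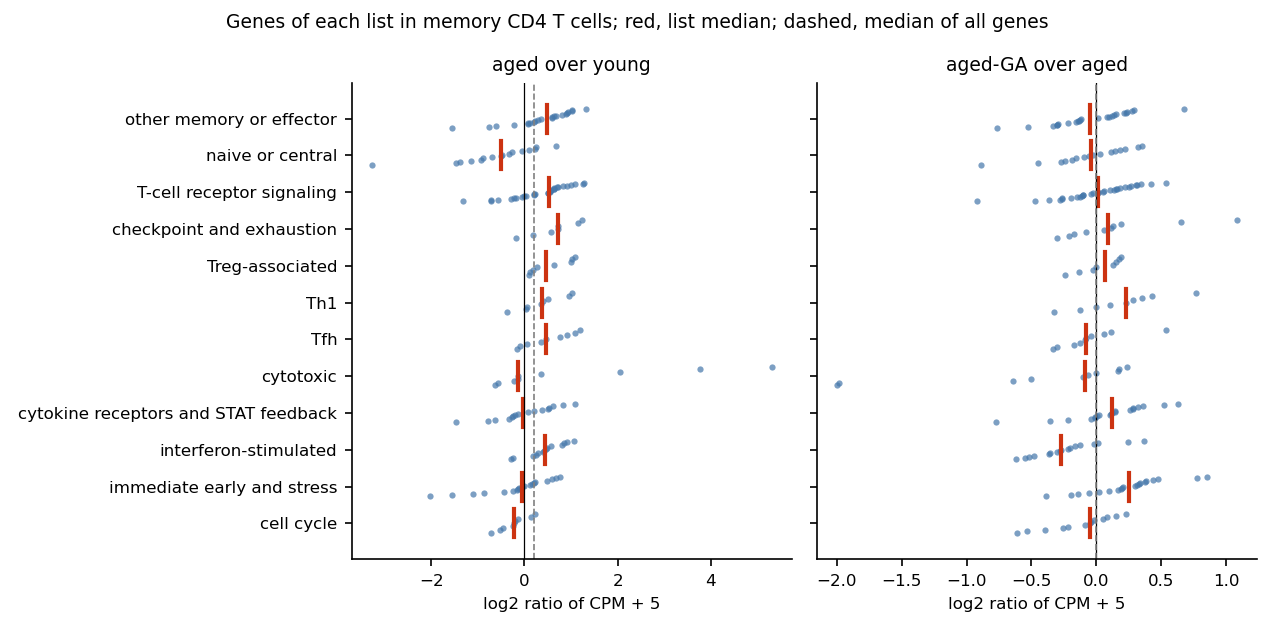
Log2 ratio of CPM plus 5 for each measured gene (points) of 12 lists in memory CD4 T cells, aged over young (left) and aged-GA over aged (right). Red lines are list medians and the dashed line the median of all genes, 0.21 on the left and 0.00 on the right; the naive list stands at -0.49 on the left and -0.04 on the right.

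Genes of T-cell receptor signaling were measured in 30 of 31 cases, 3 of them at least 2-fold higher in aged members and 1 lower. Their median was 0.52. Over all genes 6.48% were higher and 0.824% lower, with a median of 0.21. *Malt1*, the paracaspase that links the receptor to NF-kappaB, was at 184 and 446 CPM in young and aged members, a ratio of 1.26 (0.98 to 1.59), and at 531 CPM in aged-GA members. In other CD4 T cells it was at 116, 141 and 139 CPM. With 3 or more UMIs of the rule genes the ratio was 1.11. *Nfatc2*, a transcription factor activated by calcium, was at 20.8 and 49.8 CPM. *Egr1*, an immediate early gene, was at 41.6 and 108 CPM, and at 43.4 and 52.1 CPM without the members carrying markers of other cells. Its call was then lost (0.24), and those of *Csk* (1.03) and *Nfatc1* (1.01) were gained. This made 4 of 29 genes higher, beside 267 of 4154 over all genes. *Dusp2*, a nuclear phosphatase of MAP kinases, was at 615 and 244 CPM (-1.31), and in other CD4 T cells at 563 and 180 CPM. Of the checkpoint list, *Cd5*, an inhibitory receptor whose level follows receptor signaling, was at 120 and 287 CPM (1.23) and *Cd6* at 111 and 252 CPM (1.15), the 2 of 7 measured genes past 2-fold. *Cd28*, the main costimulatory receptor, was at 390, 643 and 732 CPM in the 3 libraries and at 371, 352 and 424 CPM in other CD4 T cells.

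Transcripts shared with regulatory T cells were found in members although *Foxp3* was at 0. *Ctla4*, an inhibitory receptor, was at 244, 266 and 297 CPM, between other CD4 T cells at 65.8, 50.7 and 67.4 CPM and *Foxp3*-positive CD4 T cells at 712, 906 and 761 CPM. *Ikzf2*, encoding Helios, was at 91.8, 199.99 and 229 CPM in members, against 528, 1031 and 834 CPM in *Foxp3*-positive cells. Aged over young, its ratio was 1.08 (0.69 to 1.58), 1.11 with 3 or more UMIs of the rule genes and 0.90, short of 2-fold, without the members carrying markers of other cells. *Nrp1*, a receptor of semaphorins, was the other gene of this list past 2-fold, at 38.1 and 82.5 CPM, and was short of it without those members, at 43.4 and 81.5 CPM (0.84). Since detection of *Foxp3* is incomplete in single cells, its absence does not separate the classes fully. Of 1765 genes measured in both, 6 (0.34%) were at least 2-fold higher in members than in *Foxp3*-positive cells in all 3 libraries and 6 (0.34%) lower. The higher ones included *Ccl5*, *Tcf7* and *Themis*, with *Tcf7* at 591, 687 and 604 CPM against 226, 155 and 192 CPM. The lower ones included *Ikzf2*, *Tnfrsf18*, *Ctla4*, *Capg* and *Tnfrsf4*. The *Foxp3*-positive class held 20 young, 32 aged and 28 aged-GA cells.

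Genes of helper lineages were mostly sparse. *Ifng*, the Th1 cytokine, was at 29.5, 40.5 and 72.3 CPM, and *Tbx21*, its regulator, at 6.93, 13.2 and 12.5 CPM. *Il18r1*, a receptor that sensitizes Th1 cells to interleukin-18, was at 74.5, 156 and 168 CPM (1.01 for aged over young), against 11.8, 21.1 and 21.1 CPM in other CD4 T cells. *Il4*, *Il5* and *Il13* of Th2 cells were at 0, 7.78 and 1.00 CPM, at 0, 0 and 0.502 CPM, and at 0, 1.56 and 0 CPM. *Il17a* of Th17 cells was at 27.7, 0.778 and 40.2 CPM, from 4, 1 and 5 cells. Of the 80 *Il17a* UMIs in aged-GA members, 45 came from 1 cell, and without the members carrying markers of other cells the levels were 18.6, 0.840 and 19.2 CPM. Of follicular helper genes, *Cxcr5* was at 0, 10.9 and 18.1 CPM, *Slamf6* at 177, 336 and 326 CPM and *Icos* at 140, 194 and 210 CPM. *Cd40lg* (1.18) and *Tox2* (1.09) were the 2 of 9 measured Tfh genes past 2-fold in aged over young, beside 6.48% of all genes higher. Leaving out the members with markers of other cells, *Cd40lg* was at 33.0 and 68.0 CPM (0.94) and *Tox2* at 18.6 and 38.6 CPM (0.89), and none of the 9 passed. Of the Th1 list, *Bhlhe40*, a transcription factor of effector T cells, had a ratio of 0.96, and of 1.77 without those members, at 37.2 and 139 CPM. Of 5 Th17 genes measured, *Ahr* was the one past 2-fold, at 15.6 and 42.0 CPM, and of 4 Th2 genes none.

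*Ccl5*, a chemokine of memory and effector T cells, was at 1547, 1797 and 1456 CPM in members and at 180, 152 and 408 CPM in other CD4 T cells. In thinned cells it was detected in 17.6%, 22.9% and 30.2% of members (19.8%, 28.0% and 45.8% before thinning) and in 3.38%, 11.9% and 17.4% of B cells, so the share in members lay above this background, which was itself highest in the aged-GA library. In other CD4 T cells the thinned share, 2.93%, 9.32% and 17.0%, was no higher than in B cells. A share of cells does not measure level, so whether these UMIs were background was not tested. The cytotoxic list was led in each library by *Nkg7*, a granule protein, at 204, 263 and 244 CPM, and at 128, 257 and 226 CPM without the members carrying markers of other cells, which moved its log2 ratio of aged over young from 0.36 to 0.98. *Gzmk*, a granzyme of memory T cells, was at 10.4, 59.1 and 40.2 CPM. *Gzma* was at 118, 74.7 and 46.2 CPM, but 65 of 68 young UMIs came from 1 cell. Without the members carrying markers of other cells it was 6.19, 31.9 and 10.4 CPM, a fall partly by construction, as *Gzma* helped choose those members. Aged over young, 6.48% of all genes were at least 2-fold higher and 0.824% lower. Of the 9 cytotoxic genes measured, 3 were higher and 0 lower, and their median ratio was -0.13. Without those members 4 of them, *Nkg7*, *Gzmk*, *Ctsw* and *Fasl*, still reached 50 UMIs, with ratios of 0.98, 1.95, 0.30 and -0.29. The median of these 4 was 0.64, so its direction depended on those members.

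In the immediate early and stress list, 3 genes that respond to glucocorticoids or metabolic stress were at least 2-fold lower in aged members, and they were lower in other CD4 T cells too. *Txnip*, an inhibitor of thioredoxin, was at 1403 and 471 CPM in members and at 2137 and 898 CPM in other CD4 T cells. *Tsc22d3*, encoding GILZ, was at 591 and 273 CPM, and *Ddit4* at 72.8 and 14.0 CPM. They were the 3 of 19 measured genes of this list past 2-fold. *AY036118*, a noncoding transcript, was at 3394, 851 and 795 CPM in members, at 3732, 709 and 708 CPM in other CD4 T cells and at 3587, 849 and 792 CPM in B cells, a similar difference in each of the 3 classes. *Klf6* was at 502, 853 and 1080 CPM in members and at 409, 483 and 489 CPM in other CD4 T cells. Of the other lists, 1 of 14 interferon-stimulated genes was 2-fold higher (*Isg15*, at 13.9 and 34.2 CPM). Of 16 cytokine receptor and feedback genes 1 was higher (*Il10rb*) and 1 lower (*Ifngr2*), and none of 9 cell cycle genes passed 2-fold. Over all genes, 6.48% were higher and 0.824% lower in aged members, so these single calls are not read as results about the lists. With the members carrying markers of other cells left out, *Isg15* was under the minimum of UMIs, and of 6 cell cycle genes 1 passed 2-fold, *Top2a*, a DNA topoisomerase, at 18.6 and 62.2 CPM (1.51). *Stmn1*, a regulator of microtubules, turned from 189 and 129 CPM to 80.5 and 117 CPM, and *Pcna*, a clamp of DNA polymerase, from 184 and 160 CPM to 128 and 155 CPM.

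Aged-GA over aged, 18 of 6285 genes (0.286%) were at least 2-fold higher in aged-GA members and 7 (0.111%) lower, and the median log2 ratio of all genes was 0.00. These counts became 13 higher and 14 lower of 6003 genes when the members carrying markers of other cells were left out. Of the 18 higher genes 8 were still called, and of the 7 lower ones 6, so the balance of the counts depended on these members. In other CD4 T cells 20 of 4283 (0.467%) were higher and 14 (0.327%) lower. Several of the genes past 2-fold are best known from other cells, and single cells held most of their UMIs. *Ngp*, a neutrophil granule protein, was at 4.67 and 63.7 CPM, with 112 of the 127 aged-GA UMIs in 1 cell. *Pf4*, of platelets, was at 7.003 and 71.3 CPM, with 106 of 142 UMIs in 1 cell, and *Wfdc17* at 22.6 and 54.7 CPM. Without the members carrying markers of other cells, *Ngp* was at 5.04 and 6.59 CPM and *Pf4* at 3.36 and 3.29 CPM. *Wfdc17* was then at 10.1 and 3.84 CPM, from 12 and 7 UMIs. Each of these genes was then under the minimum of UMIs, so the direction of *Wfdc17* is not read. Of genes presenting antigen on class II, *H2-Aa* was at 31.1 and 107 CPM, *H2-Ab1* at 35.8 and 106 CPM and *Cd74* at 107 and 277 CPM. Without the members carrying markers of other cells, *H2-Aa* was at 21.0 and 52.1 CPM, *H2-Ab1* at 30.2 and 45.0 CPM and *Cd74* at 68.0 and 114 CPM. *Cd74* was also higher in aged-GA than in aged other CD4 T cells, at 232 and 55.0 CPM. Of the genes that were lower, *Ccl4* went from 193 to 45.2 CPM and *Ccl3* from 87.2 to 18.1 CPM. Without those members *Ccl4* went from 28.6 to 8.78 CPM and *Ccl3* from 14.3 to 3.84 CPM. *Ccl3*, with 17 and 7 UMIs left, was then under the minimum of UMIs. *Lyz2* was at 120 and 46.7 CPM, and at 90.2 and 31.6 CPM in other CD4 T cells.

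Over all genes, 0.286% were at least 2-fold higher and 0.111% lower in aged-GA members, and most lists of T cell genes also differed little. The cytotoxic list had 2 of 10 genes at least 2-fold lower in aged-GA members, *Ccl3* and *Ccl4*. It had 2 of 9 lower without the members carrying markers of other cells, among them *Gzma* (-1.26, from 38 and 19 UMIs). None of 24 memory or effector genes, 16 naive genes, 31 genes of T-cell receptor signaling or 17 interferon-stimulated genes passed 2-fold. With so few calls over all genes, this is not particular to these lists. *S100a6* was at 2141 and 1484 CPM in aged and aged-GA members, a log2 ratio of -0.53 (-0.60 to -0.45), and *Lgals1*, a lectin, at 1090 and 640 CPM (-0.76, -0.88 to -0.66). *Itgb1* was at 705 and 829 CPM (0.23, 0.12 to 0.35). *Igfbp4* was at 121 and 62.7 CPM (-0.89, -1.29 to -0.59), the largest difference of the naive list. The interferon-stimulated list had 14 of 17 genes lower, with a median of -0.27. *Isg15* was at 34.2 and 20.6 CPM, *Igtp*, a GTPase of vacuole defense, at 64.6 and 43.7 CPM and *Ly6e* at 590 and 477 CPM (-0.30, -0.44 to -0.17). The immediate early and stress list had 16 of 20 genes higher and a median of 0.25, beside 0.00 for all genes. This was not particular to members. In other CD4 T cells 15 of 19 were higher, with a median of 0.17 beside -0.04 for all genes. The summed level of the list in B cells was 8634 CPM in the aged and 10234 CPM in the aged-GA library. In members, *Socs3*, a feedback inhibitor of STAT3, was at 139 and 201 CPM (0.52, 0.28 to 0.80) and *Klf6* at 853 and 1080 CPM. *Tnfsf11*, encoding RANK ligand, was the 1 gene of 10 in the checkpoint list past 2-fold, at 13.2 and 33.6 CPM, and *Il17a* the 1 of 6 Th17 genes. Without the members carrying markers of other cells, 1 aged and 35 aged-GA *Il17a* UMIs were left, under the minimum of 50 UMIs, and its call was lost. *Coq10b*, *Ube2e1* and *Vamp3* were higher by 0.90, 0.97 and 0.96, and *Skiv2l*, *Ncoa3*, *Lztfl1* and *Ppp1r35* lower, by -0.97, -0.87, -0.86 and -0.84, all short of 2-fold except *Ube2e1* without the members carrying markers of other cells (1.02).

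Members were not uniform, and they were divided by whether a UMI of each rule gene was detected. The rule couples these genes: a member without one of them must carry 2 or more UMIs of the others, so these values are a description. The median depth with and without *Tnfsf8* was 5002 and 6044 UMIs in young, 3957 and 4001 in aged and 4659 and 4778 in aged-GA members. Of 250 genes compared, 4 were at least 1.5-fold higher with *Tnfsf8* in all 3 libraries and 8 lower. *Ccl5* was at 9.48 CPM in the 39 young members with *Tnfsf8* and 2433 CPM in the 52 without, at 303 and 3093 CPM in aged members and at 608 and 2371 CPM in aged-GA members. *Nkg7* was at 0, 92.1 and 107 CPM with *Tnfsf8* and at 322, 411 and 393 CPM without. *Lgals3* and *Ccr2*, an inflammatory chemokine receptor, were lower with *Tnfsf8* too, and *Igfbp4*, *Dapl1*, *Il4ra* and *Cd200* higher. Without the members carrying markers of other cells, *Ccl5* was at 9.48, 143 and 527 CPM with *Tnfsf8* and at 2596, 3350 and 2230 CPM without, and 2 of the 4 higher genes, *Igfbp4* and *Il4ra*, and 5 of the 8 lower ones stayed 1.5-fold apart in all 3 libraries. *Igfbp4* was at 431, 179 and 102 CPM with it and at 180, 69.8 and 19.8 CPM without. Members with *Tnfsf8* thus held less *Ccl5* and *Nkg7* than those without it in each of the 3 libraries.

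Members with *Cxcr3* were higher for 8 genes and lower for 7. *Cxcr6* was at 251, 38.2 and 45.2 CPM with *Cxcr3* and at 2.59, 15.5 and 14.7 CPM without, *S100a4* at 1469, 1253 and 1345 CPM and at 220, 724 and 711 CPM, and *Il2rb*, a chain of the receptors for interleukin-2 and interleukin-15, at 246, 238 and 249 CPM and at 119, 113 and 163 CPM. *Igfbp4* was at 36.6, 36.5 and 8.65 CPM with it and at 389, 189 and 122 CPM without. Leaving out the members carrying markers of other cells, *Cxcr6* was at 167, 30.9 and 42.9 CPM with *Cxcr3*, from 20, 16 and 41 UMIs, and at 0, 16.4 and 13.9 CPM without, and 7 of the 8 higher and 5 of the 7 lower genes stayed 1.5-fold apart. These counts have no minimum of UMIs. *Ngp*, among the 7, rested on 1 and 0 UMIs in young, 4 and 2 in aged and 9 and 3 in aged-GA members. With *Maf*, 4 genes were higher and 2 lower in all 3 libraries, and 3 and 2 of these without the members carrying markers of other cells, *Gzmb* being lost. *Ctla4* was at 329, 303 and 356 CPM with *Maf* and at 174, 181 and 149 CPM without, and *Gzmk* at 19.2, 77.9 and 47.1 CPM and at 3.16, 15.5 and 22.8 CPM. With *Rora*, 14 genes were higher and 4 lower. *S100a4* was at 1009, 1112 and 1176 CPM with *Rora* and at 198, 659 and 754 CPM without. *Il18r1* was at 103, 186 and 195 CPM and at 41.2, 95.8 and 109 CPM. *Mki67*, *Top2a* and *Birc5* of dividing cells were higher too, *Mki67* at 64.5, 43.2 and 47.0 CPM and at 7.49, 9.35 and 6.35 CPM, from few cells: 13 of 22 young *Mki67* UMIs came from 1 member. Leaving out the members carrying markers of other cells, *Mki67* was at 8.39 and 8.13 CPM with and without *Rora* in young members, *Birc5* at 0 in both, and 5 of the 14 higher genes and the 4 lower ones stayed 1.5-fold apart in all 3 libraries, so the differences in *Mki67*, *Top2a* and *Birc5* were lost in the young library, and that in *Top2a*, at 33.8 and 23.0 CPM, in the aged-GA library too. That in *S100a4*, at 1103 and 766 CPM in aged-GA members, was then short of 1.5-fold. *Igfbp4* was lower with *Rora*, *Maf* or *Cxcr3* and higher with *Tnfsf8* in each library.

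**Figure D5:**
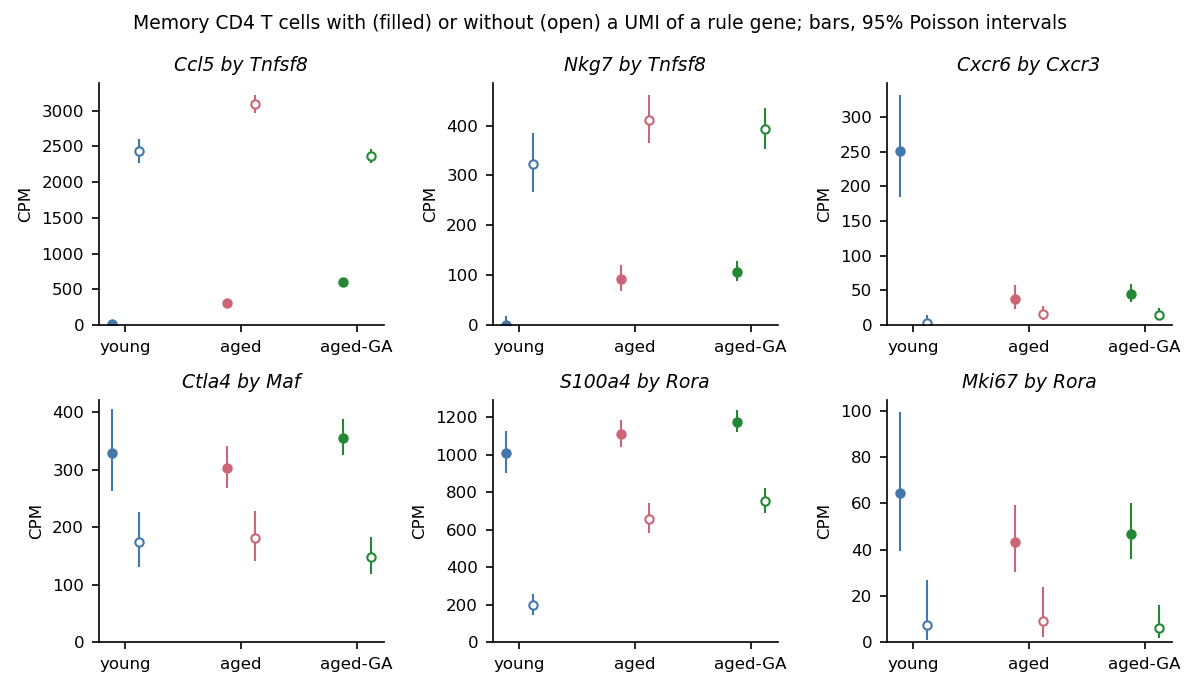
Level in CPM of 6 genes in memory CD4 T cells with (filled) and without (open) a UMI of the rule gene named in each title, by library; lines are Poisson 95% intervals of counting. *Ccl5* with *Tnfsf8* sits at 9.48, 303 and 608 CPM, below 2433, 3093 and 2371 CPM without it.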

How the data were processed

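RNA of PBMCs was counted on the 10x platform in 3 libraries. The authors aligned reads with Cell Ranger (5.0.0 per the file headers, another version in the methods) to mm10, per the labels, and deposited raw UMI counts per gene and barcode, without normalization. Of 32285 gene IDs, 32158 matched GENCODE M21, which gave the positions. Kept cells had at least 200 genes, at most 7.5% mitochondrial UMIs and under 20% haemoglobin UMIs, with 42021745, 44277264 and 59921959 UMIs in young, aged and aged-GA mice. Members held 577149, 1285079 and 1992180 UMIs.

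From the deposited counts, UMIs were summed over the members of a library and scaled to CPM. Ratios are log2 ratios of CPM with a pseudocount of 5, for genes that reached 50 UMIs in the 2 libraries together. Intervals of levels are exact Poisson, those of shares exact binomial and those of ratios of counts exact conditional (without the pseudocount), all of 95%; the intervals of log2 ratios of shares use a normal approximation on the log scale. UMI counts without replicate libraries give counting error only. The 22 gene lists, the rule and the members were chosen with earlier results of these data known. Genes named are those of the lists and the rule and, leaving out segments of antigen receptors and genes of globins, ribosomal proteins and mitochondria, the 10 highest and 10 lowest ratios per comparison among genes at 50 CPM or more in one library, and the 15 whose smallest ratio over other CD4 T cells is largest. Genes lowest in members against other CD4 T cells, those apart from *Foxp3*-positive cells (*Themis*, for example) and those apart in the parts with a rule gene were chosen after their values were seen.

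Doublets were kept, and were called for an alternative by Scrublet in scanpy 1.11.5 with a common cut of 0.189, since the automatic cut marked 0.0922% of aged-GA cells; this called 5.17%, 4.63% and 4.94%. On simulated counts of 32285 genes for aged over young, 100% of 156 genes changed 4-fold were recovered past 2-fold. Of unchanged genes, 0.185% were called. The counts were Poisson draws of library sums, without cells. Single cells holding most UMIs of a gene were thus not covered, and 0.185% is not an error rate for the calls above.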

Additional observations from a re-analysis of the deposited data

Results flagged for a closer look

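The genes below differed between 2 libraries in opposite directions in memory and in other CD4 T cells, with counting intervals on either side of 0 and log2 ratios at least 1 apart. With 1 library per group, the difference between the classes was not tested. Aged over young, *Igfbp4* was lower in members (272 and 121 CPM in young and aged) and higher in other CD4 T cells (557 and 1012 CPM), a difference of log2 ratios of -1.996. *Ctsw*, a cathepsin of cytotoxic cells, was at 76.2 and 49.8 CPM in members and at 28.6 and 45.1 CPM in other CD4 T cells (-1.14). Without the members carrying markers of other cells it was at 39.2 and 49.6 CPM in members, no longer in the opposite direction. Its log2 ratio was then 0.30, with an interval (-0.43 to 1.17) that includes 0. *Dusp1*, a phosphatase of MAP kinases, was at 341 and 479 CPM in members and at 376 and 254 CPM in other CD4 T cells (1.04). With those members left out *Dusp1* was at 349 and 394 CPM in members, a log2 ratio of 0.17 whose interval (-0.08 to 0.44) includes 0, and the difference between the classes was 0.73, so it no longer met these limits.

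Aged-GA over aged, *Ccl5* was at 1797 and 1456 CPM in aged and aged-GA members and at 152 and 408 CPM in other CD4 T cells (-1.70). In other CD4 T cells the thinned share of cells with a UMI was no higher than in B cells, but it does not measure level. *Gzma* was at 74.7 and 46.2 CPM in members and at 7.05 and 56.8 CPM in other CD4 T cells (-2.998), and without the members carrying markers of other cells at 31.9 and 10.4 CPM in members. *Cxcl2* was at 211 and 171 CPM and at 9.86 and 37.3 CPM (-1.80). Without the members carrying markers of other cells it was at 10.1 and 17.0 CPM in members, from 12 and 31 UMIs. This is under the minimum of 50 UMIs, and the interval of the log2 ratio (-0.25 to 1.85) includes 0, so its direction is not read. *Tyrobp* was at 121 and 67.8 CPM and at 25.4 and 56.0 CPM (-1.79), and without those members at 22.7 and 9.33 CPM in members, under the minimum of 50 UMIs. *Stmn1* was at 129 and 82.8 CPM and at 62.0 and 112 CPM (-1.42), and without those members at 117 and 67.5 CPM in members. In members, 57 of the 96 aged *Gzma* UMIs and 194 of the 341 aged-GA *Cxcl2* UMIs came from 1 cell each. When the members carrying markers of other cells were left out, *Igfbp4* (-2.16), *Ccl5* (-1.86), *Gzma* (-3.62) and *Stmn1* (-1.55) still met the limits. *Gzma* is itself among the genes that chose the members carrying markers of other cells, so its value is partly by construction. Such cells were left out of the members only, so the values of other CD4 T cells were not checked in this way. In those, aged-GA over aged, 2 of 4 NK cell markers were at least 2-fold higher and 0 lower, and 3 of 9 myeloid markers were higher and 1 lower. Their part in these differences was not tested.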

How the results depend on the processing

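No paired analysis was possible because each group had 1 library. The share of memory CD4 T cells was higher in aged than in young mice under every alternative run, and the log2 ratio of aged-GA over aged moved by less than its interval under each of them. Members were 1.51% of kept young cells with at most 5% mitochondrial UMIs; 2.92%, 3.80% and 4.33% of young, aged and aged-GA cells with at least 1 UMI of the 4 genes; 0.610%, 2.52% and 2.98% with at least 3; and 0.231%, 1.46% and 1.51% on cells thinned to 2000 UMIs. The log2 ratio of aged over young was then 1.00, 0.38, 2.04 and 2.66. Of *Foxp3*-negative CD4 T cells they were 11.2% in young with at most 5% mitochondrial UMIs, then 24.4%, 68.2% and 66.4%, 5.10%, 45.2% and 45.8%, and 3.83%, 41.1% and 42.6%, with log2 ratios of 2.27, 1.48, 3.15 and 3.42.

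Aged over young, genes past 2-fold numbered 101 higher and 21 lower with a pseudocount of 20 CPM, 579 and 86 with a minimum of 20 UMIs, 124 and 24 with 100 UMIs, and 142 and 85 after centring. The median of the memory or effector list was 0.76 from mean per-cell shares, 0.27 after centring, 0.052 with at least 3 UMIs of the 4 genes and 0.90 without members carrying markers of other cells (21 of 22 genes still measured), and that of the cytotoxic list was 0.80 with at least 3 UMIs (6 of 9 genes). Aged-GA over aged, the counts were 34 higher and 17 lower with a pseudocount of 1 CPM, 7 higher with 20 CPM, 42 and 20 with a minimum of 20 UMIs, 6 higher with 100 UMIs and 12 lower from mean per-cell shares. They were 13 higher and 14 lower without members carrying markers of other cells. The last alternative was chosen after seeing the data. The cause of these moves was not tested. Depth limits what can be read: 91 young members bound each young level.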
